A study of Pan troglodytes with 8 samples.

Results

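The same 8 RNA-seq libraries from chimpanzee cerebral organoids were counted on 2 genomes, the chimpanzee assembly panTro6 and the human assembly hg38, and the resulting tables are set side by side here. The 8 libraries are all those of the study. They were made from SandraA, an induced pluripotent stem cell line of Pan troglodytes, grown into organoids and collected at week 8 (within 3 days either side). Each of 4 sorted populations had 2 libraries, each made from RNA of 10000 cells. The radial glia were split into an apical population (aRG) and a basal one (bRG), and beside them stood basal intermediate progenitors (bIP) and neurons positive for BCL11B (N). No group was treated or genetically altered, and all populations came from 1 cell line. Genes were matched by symbol. All 18137 symbols of the hg38 table were also in the panTro6 table, which had 60583 named rows. Of the shared symbols, 15123 reached on average 1 CPM (read counts scaled to library size) in either table, and these are the genes described.

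Apical radial glia are the stem cells that line the ventricle of the developing cortex, and their basal counterparts are stem cells detached from that surface. Both give rise to intermediate progenitors, which divide to produce neurons. A read gives a count only where the genome holds a place to align it and the annotation names a gene there. Where a gene lies in a gap of the assembly, has no model in the annotation or has near-identical copies, its reads can be lost, moved to a copy or dropped as ambiguous. All genes described here have a named row in both tables. Matching by symbol misses reads that either table holds under another symbol, and how often was not tested. Recently duplicated gene families are among the places where human and chimpanzee genomes differ, and many genes studied for their part in human cortex size belong to such families.

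Counts over shared symbols were 11635116 to 16447389 per library on hg38 and 20136367 to 28429140 on panTro6, a ratio of 1.70 to 1.74 within each library. A further 14.5% to 19.6% of the panTro6 counts lay on symbols outside the hg38 table. Levels are therefore given as CPM over the shared symbols. The ratio between genomes is log2((panTro6 CPM + 1)/(hg38 CPM + 1)) in each library, a scale that understates differences of genes near 1 CPM. The median ratio was 0.04 over all genes, and library medians were 0.03 to 0.04. With panTro6 CPM taken over all named rows, the scale of panTro6 levels moved by -0.31 to -0.23 (log2), depending on the library, and the ratio of a gene by a median of -0.27, less near 1 CPM and not at all for genes at 0 on panTro6. Both tables come from the same libraries, so agreement between them is not independent evidence of any population difference.

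Most identity genes had a median ratio within 2-fold. SOX2, a transcription factor of neural stem cells, stood at 1064 and 904 CPM on hg38 in the aRG libraries and at 1209 and 1014 on panTro6, against 23.4 and 11.4 (hg38) and 26.1 and 13 (panTro6) in N. EOMES, which marks intermediate progenitors, was at 1458 and 1665 CPM on hg38 and 1678 and 1933 on panTro6 in bIP, and at no more than 220 CPM in any other library of either table. BCL11B, the gene of the neuron gate, was at 486 and 614 CPM on hg38 and 510 and 652 on panTro6 in N. In bIP its means were 372 CPM on hg38 and 395 on panTro6. Of 39 different genes in lists for radial glia, apical and basal features, intermediate progenitors and neurons, 37 were shared symbols, DCX and PALS1 being outside the hg38 table. Of these 37, LIFR, a cytokine receptor subunit listed among basal radial glia markers, was the single gene over 2-fold apart in all 8 libraries. It was at 32.5 to 194 CPM on hg38 and 10.4 to 62.9 on panTro6, higher in both radial glia populations than in bIP and N on either genome. Next lowest on panTro6 were LGALS3BP, a secreted glycoprotein (median ratio -0.90, with means of 332 CPM on hg38 and 183 on panTro6 in aRG), STMN2, a microtubule regulator of neurons (-0.62, with 1019 and 657 CPM in N), and PARD3, an apical polarity protein (-0.62, with 164 and 107 CPM in aRG). In the neuron list, MAP2 and RBFOX3 had higher means in bIP than in N on both genomes, and the others were highest in N. In the basal radial glia list, TNC and MOXD1 had higher hg38 means in bRG than in aRG. The others in that list had lower means in bRG, HOPX among them (36.8 CPM against 51.5 in aRG).

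Of the 15123 genes, 13671 (90.4%) were within 2-fold on the 2 genomes in every library, and the quartiles of the median ratio were -0.12 and 0.14. Another 617 passed 2-fold in some libraries but not all. Higher on panTro6 by over 2-fold in all 8 libraries were 42 genes (0.278%). Higher on hg38 in all 8 were 793 (5.24%), of which 398 had no count on panTro6 in any library and 395 had at least 1. These classes define the comparison and were not tested. At the edge of the rule the nearest genes inside were SLC35G5, whose lowest ratio was 1.001, and LRRC27, with a ratio nearest to 0 of -1.0002. Just outside were GTF2H2 (lowest ratio 0.999) and POLR2J2 (nearest to 0 at -0.996).

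**Figure D1:**
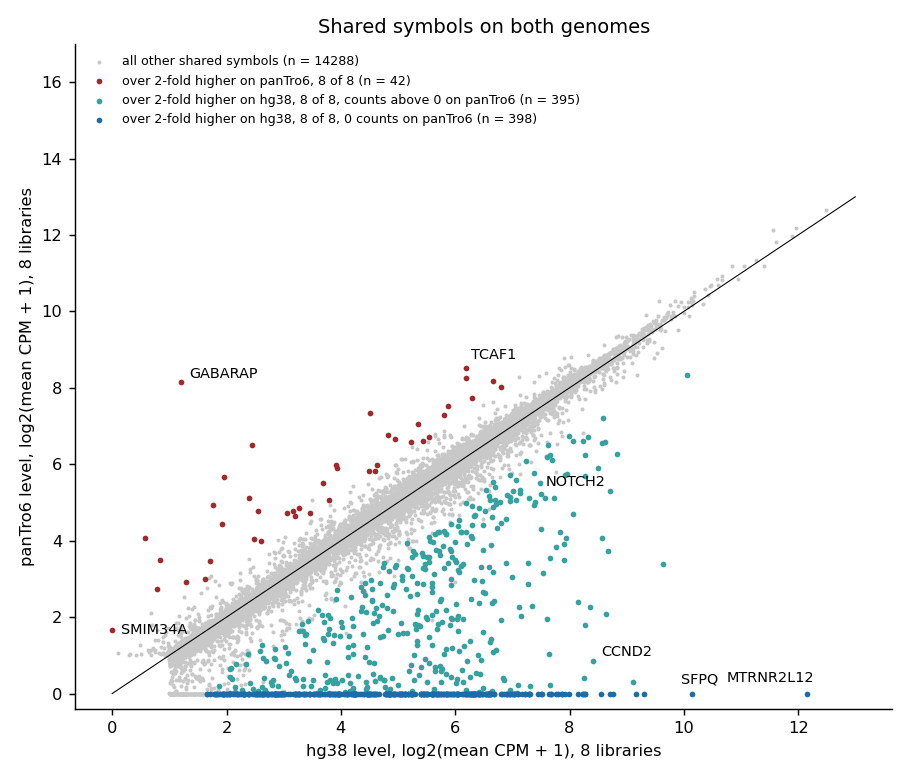
Each point is a shared symbol that averaged 1 CPM or more in either table. The horizontal axis gives log2(mean CPM + 1) on hg38 and the vertical axis the same on panTro6, over 8 libraries, with the line of equality drawn. Most points follow the line, and 520 genes lie at 0 on panTro6, of which 398 (blue) passed 2-fold in all libraries. Of the other coloured genes, 395 lie below the line with counts on panTro6, and 42 lie above it.

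Genes higher on panTro6 were few, and 38 of the 42 had a regular symbol and at least 10 CPM there. The widest gap was at GABARAP, a ubiquitin-like protein that carries cargo into autophagosomes. Its 8 libraries ran from 239 to 319 CPM on panTro6 and from 1.03 to 1.99 CPM on hg38, a median ratio of 6.99. No library approached the other table's range, and on panTro6 the N libraries, at 256 and 239 CPM, were the lowest. Its level did not pass the test between populations on either genome (adjusted p = 0.806 on panTro6 and 0.891 on hg38, edgeR quasi-likelihood test with Benjamini-Hochberg adjustment, here and below unless another test is named).

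CELF6, an RNA-binding splicing regulator, was read at different levels on the 2 genomes in all populations. On panTro6 it was at 14.1 and 18.0 CPM in aRG, 44.5 and 76.5 in bRG, 85.9 and 56.5 in bIP and 174 and 251 in N. On hg38 the same libraries gave 0.516 and 0.182, 3.01 and 2.61, 5.80 and 5.05, and 12.5 and 6.03 CPM. Both tables had N highest and aRG lowest with no overlap between these populations. The log2 difference of N from aRG was 3.89 ± 0.38 (standard error, SE) on panTro6, with an adjusted p of 0.000107, and 4.92 ± 0.76 on hg38, with an adjusted p of 0.00122.

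TCAF1, which binds and regulates an ion channel, was at 235 to 528 CPM on panTro6 and 47.4 to 101 on hg38. In both tables every bIP and N library exceeded every radial glia library, and TCAF1 passed the test on both (adjusted p = 0.00746 on panTro6 and 0.0312 on hg38), on hg38 in only 5 of 12 alternative fits (adjusted p up to 0.103). PWP2, a ribosome assembly factor, was at 31.5 to 103 CPM on panTro6 and 6.06 to 20.8 on hg38, and passed on panTro6 (adjusted p = 0.0184, up to 0.118 when 1 library was left out) but not on hg38 (0.166). Whether the population difference of PWP2 itself differs between tables was tested, and its ratio did not pass (adjusted p = 0.996, limma). The remaining named genes had larger panTro6 levels with no call between populations in either table. They were GSTT2 (glutathione transferase, median ratio 3.71), SMIM11A (3.57, not tested on hg38, where it was under the filter), NOMO3 (3.20), PGAM1 (glycolysis, 2.78), SIK1 (a kinase, 2.73), NAIP (an innate immune sensor, 2.64), CHST5 (a sulfotransferase, 2.36) and EIF3CL (2.17).

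Another 4 of the 42, chosen after their values were seen, are abundant housekeeping transcripts. UBB, which encodes polyubiquitin, was at 226 to 453 CPM on panTro6 and 56.6 to 103 on hg38. The ratio was 2.04 for UBB, 1.52 for EIF4H (translation initiation), 1.46 for SRP9 (signal recognition particle) and 1.39 for RPL12 (ribosomal protein), each the median over 8 libraries. With panTro6 CPM over all named rows, the ratio of UBB was 1.75 and 23 genes in place of 42 passed 2-fold in all libraries. SMIM34A was the single gene at 0 on hg38 in every library that reached 1 CPM on panTro6, with 1.04 to 4.03 CPM there and an hg38 floor (3 counts) of 0.182 to 0.258 CPM.

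**Figure D2:**
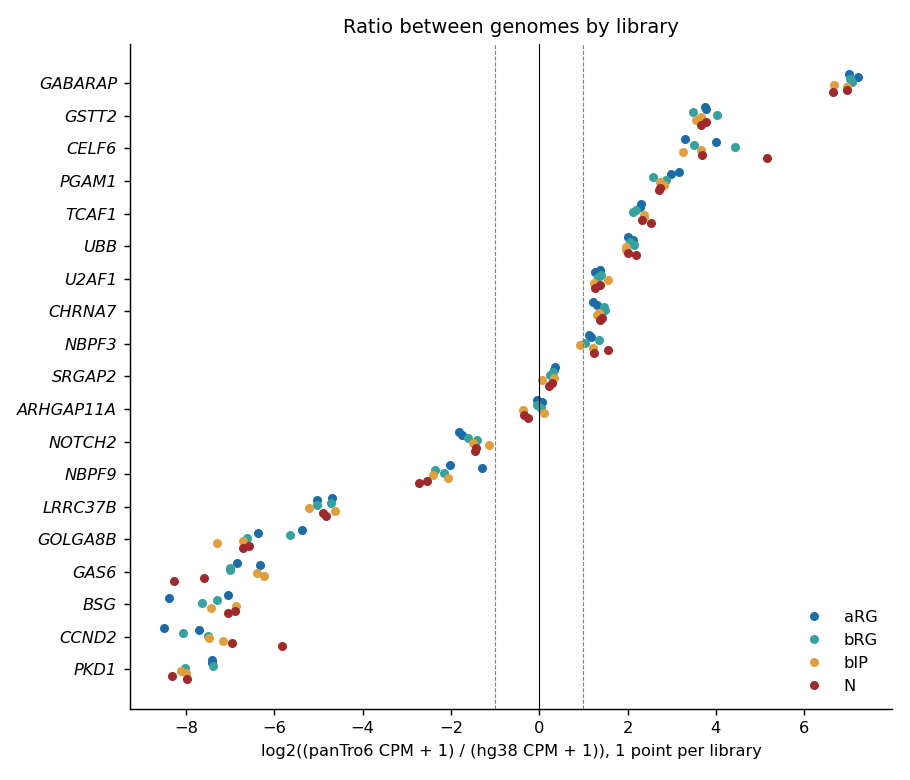
The log2 ratio of panTro6 over hg38 CPM (1 CPM added to both) is shown for 19 genes, with 1 point per library coloured by population and dashed lines at 2-fold. GABARAP lies near 7 in all libraries, SRGAP2 and ARHGAP11A lie near 0, and CCND2, PKD1, BSG and GAS6 lie below -5 in all 8.

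The reverse case was more frequent. On panTro6, 1052 shared symbols had 0 counts in all 8 libraries, and 520 of these averaged 1 CPM or more on hg38 (3.44% of 15123). They held 2.36% to 2.85% of the hg38 counts of a library. Of the 520, 285 reached 10 CPM on hg38 and 49 reached 100 CPM. While 398 of the 520 met the 2-fold rule in every library, 122 did not, their hg38 level being at or under 1 CPM in at least 1 library. On hg38, by contrast, 214 shared symbols were at 0 in all libraries, and 194 of these were at 0 on panTro6 too. A count of 0 in a panTro6 library allows up to 3 counts, or 0.106 to 0.149 CPM, if each count is a separate read. Each fold below sets the hg38 mean of 8 libraries against the mean of their floors, and is a lower bound on that condition. Over all named rows of panTro6, values of 2 (21576) outnumbered values of 1 (16443), and values of 4 (12294) those of 3 (9721). On hg38 the values fell steadily, from 3442 at 1 to 1859 at 4. The cause was not tested. Counts include PCR copies, so floors cover counting error only.

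MTRNR2L12, one of several nuclear copies resembling a mitochondrial ribosomal RNA gene, had 3172 to 6116 CPM on hg38, with a mean at least 34242-fold higher than on panTro6. SFPQ, an abundant splicing and paraspeckle protein, had 874 to 1399 CPM on hg38 and no count on panTro6, its mean being at least 8498-fold higher. Its lowest mean was in N, at 874 and 1071 CPM, and the test among populations did not pass (adjusted p = 0.794). MTRNR2L12 shares sequence with the transcript it resembles, so its level is uncertain.

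The other zero genes with the highest hg38 means covered ribosomal proteins, transcription and chromosome maintenance. RPL18, RPS15 and RPL36, all ribosomal proteins, had 235 to 860, 256 to 602 and 170 to 551 CPM on hg38. TCF25, a ribosome quality control factor, had 217 to 383 CPM, INTS11, the endonuclease of the Integrator complex, 236 to 347, and NCAPH2, a condensin II subunit, 170 to 444. ANKRD36C had 288 to 722 CPM, NPIPB15 512 to 731 and NPIPB2 208 to 399. None of these 9 passed the population test on hg38 in the edgeR fit to all libraries, with adjusted p from 0.0839 (NCAPH2) to 0.997 (TCF25). NCAPH2 passed in 3 of 12 alternative fits, DESeq2 among them. Also at 0, chosen after their values were seen, were GPX4, the peroxidase that protects membrane lipids (95.8 to 327 CPM on hg38), and EIF5A, a translation factor (177 to 288 CPM).

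Zero genes often lay next to each other. Gene order was taken from RefSeq annotation of another chimpanzee assembly, NHGRI_mPanTro3-v2.0, which placed 14485 of the 15123 genes and 392 of the 520 zero genes. Counting only genes at 1 CPM or more, 211 of the 392 placed zero genes (53.8%) had a zero gene as an immediate neighbour, against 488 of 14093 other placed genes (3.46%). There were 73 runs of 2 or more consecutive zero genes and 32 runs of 3 or more, which held 129 genes. The longest runs had 9 genes. These shares describe gene order, with no test, and neighbours share a locus and are not independent of each other.

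One 9-gene run went from RHBDL1 to HAGHL through STUB1, JMJD8, WDR24, FBXL16, METRN, ANTKMT and CCDC78. On hg38 its mean levels were 4.27 CPM (JMJD8) to 59.3 (RHBDL1). The next gene on one side, RHOT2, a mitochondrial GTPase, was at 206 CPM on hg38 and 68.1 on panTro6, and on the other side CIAO3, an iron-sulfur cluster factor, at 104 and 30.1 CPM. Both flanking genes were thus counted on panTro6 at lower levels.

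The other 9-gene run went from SHMT1 to DRG2 and held TOP3A, a topoisomerase (118 to 195 CPM on hg38), LLGL1, a cell polarity protein (24.7 to 66.6 CPM), and ALKBH5, an RNA demethylase (82.0 to 166 CPM). Its flanks were counted alike on both genomes: USP22 at 206 CPM on hg38 and 254 on panTro6, and GID4 at 22.0 and 23.2. A 7-gene run from AURKAIP1 to PUSL1 held INTS11 and DVL1, a Wnt signal transducer (30.7 to 52.7 CPM on hg38). Beside it CCNL2, a cyclin, was at 712 CPM on hg38 and 824 on panTro6, while ACAP3 on the other side was at 134 and 0.0119.

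A second 7-gene run went from UQCRC2, a respiratory chain subunit with 107 to 154 CPM on hg38, to POLR3E. A 6-gene run held PTBP1, the repressor of neuronal exons, MED16, a Mediator subunit (64.3 to 112 CPM), and R3HDM4. Its neighbour ARID3A was at 51.2 CPM on hg38 and 46.3 on panTro6. The edges of these runs differed: some flanking genes were within 2-fold on both genomes and others were themselves low on panTro6.

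**Figure D3:**
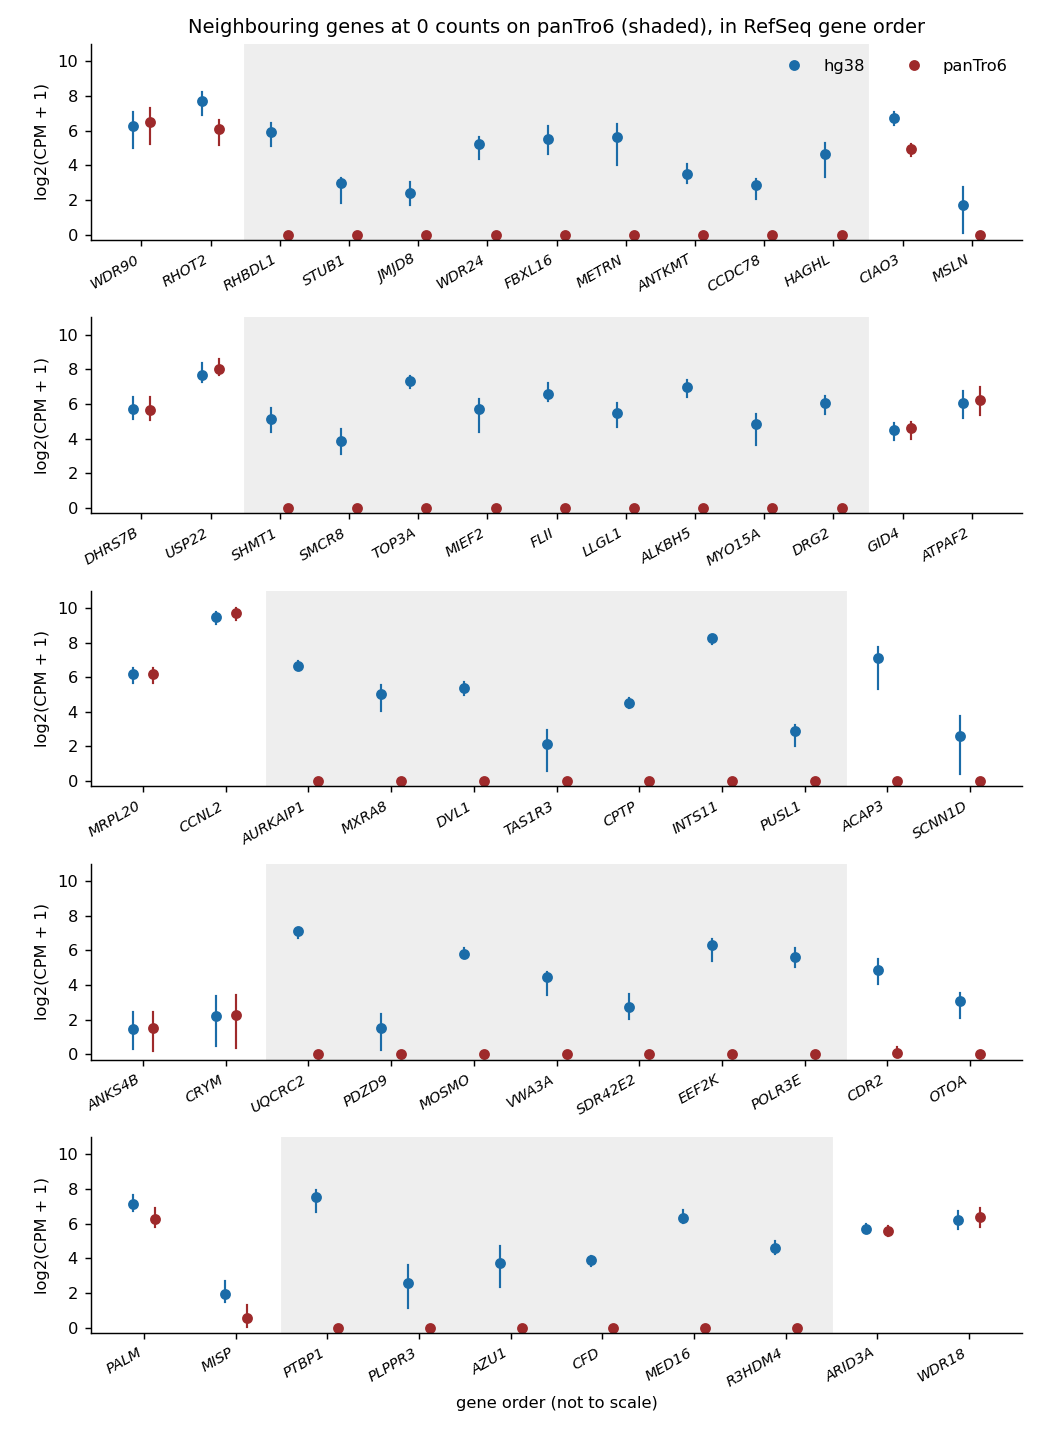
Each panel shows a run of neighbouring genes at 0 counts on panTro6 (shaded) with flanking genes, in RefSeq order and not to scale. Points are the mean and bars the range over 8 libraries of log2(CPM + 1), blue for hg38 and red for panTro6. Inside the shading the panTro6 points lie at 0, while hg38 means in the first panel range from 4.27 to 59.3 CPM.

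Most symbols listed as belonging to recently duplicated families were read higher on hg38, with the families divided among themselves. A list of 28 groups taken as human duplicates held 127 shared symbols, of which 75 reached 1 CPM. Whether each listed symbol is a true gene copy was not tested. Of these 75, 47 (62.7%) were over 2-fold higher on hg38 in all 8 libraries, against 5.24% of all genes, and 4 were higher on panTro6. At 0 on panTro6 with 1 CPM or more on hg38 were also 47. Of 23 groups with a symbol at 1 CPM, 9 had most of their symbols higher on hg38 and 9 had none, and NPIP with 13 and NBPF with 9 held the most of the 47. Reads of near-identical copies can be split or dropped by the counting step, so single-copy levels in these families are uncertain. All libraries are from chimpanzee cells, and whether hg38 reads on a listed copy came from that copy or from its parent gene was not tested. The count is a description, since the groups were listed with earlier results of these data known.

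Summed over its members, the NPIP family of nuclear pore interacting proteins had 1205 ± 200 CPM on hg38 (SD over the 8 libraries of all populations) and 0.0454 ± 0.0347 on panTro6. POM121 and POM121C, nuclear pore genes, had 131 ± 11.3 on hg38 and 0 on panTro6. RANBP2, another nuclear pore protein, with its RGPD copies had 130 ± 29.5 and 0.00505 ± 0.0143 CPM. GOLGA6 and GOLGA8 together had 356 ± 137 and 7.03 ± 4.79 CPM, LRRC37 genes 145 ± 15.1 and 2.83 ± 0.591, and GPR89A with GPR89B 29.99 ± 3.52 and 0. In these 6 groups the sum on panTro6 was under 3% of that on hg38, so the listed copies together held few reads there.

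Other groups had 1 member read higher and another lower on panTro6. EIF3CL, a copy of the translation factor gene EIF3C, was at 18.8 to 34.7 CPM on panTro6 and 2.67 to 6.90 on hg38, while EIF3C was at 0 on panTro6 and at a mean of 18.3 CPM on hg38. Their sums were 26.2 ± 6.90 CPM on panTro6 and 23.1 ± 4.28 on hg38. U2AF1, a splicing factor, had 69.7 to 130 CPM on panTro6 and 26.3 to 49.0 on hg38. U2AF1L5, listed with it, was at 0 and 9.42 CPM on average. Here the sums stayed apart, at 94.8 ± 22.2 and 45.9 ± 10.3 CPM. CHRNA7, a nicotinic receptor subunit, had a median ratio of 1.36 and its fusion copy CHRFAM7A was at 0 on panTro6. CBS, an enzyme of sulfur amino acid metabolism, had a ratio of 1.62, and CBSL, listed with it, had -1.91.

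Among duplicated genes studied in human cortex, ARHGAP11A, a GTPase activator, read alike, with means of 27.3 CPM on panTro6 and 27.6 on hg38 and a median ratio of -0.05, or -0.34 with CPM over all named rows. SRGAP2, a regulator of neuronal migration and spine maturation, was at 159 and 131 CPM, a ratio of 0.30 that became 0.01 over all named rows, and SRGAP2B was at 0 and 1.74 CPM. NOTCH2, a Notch receptor of radial glia, was read lower on panTro6 in every library. On hg38 it was at 328 and 279 CPM in aRG, 266 and 229 in bRG, 85.4 and 63.7 in bIP and 31.7 and 45.4 in N. On panTro6 the same libraries had 92.3 and 82.5, 85.8 and 84.9, 29.5 and 28.6, and 11 and 16 CPM. The order of population means was the same, but the aRG and bRG libraries overlapped on panTro6 and not on hg38. N was lower than aRG by a log2 difference of -2.82 ± 0.28 (SE) on hg38, with an adjusted p of 9.78e-05. On panTro6 this difference was -2.52 ± 0.28, with an adjusted p of 0.000217. NOTCH2NLC, listed with NOTCH2, was at 0 on panTro6 and at a mean of 2.49 CPM on hg38. NBPF9 and NBPF1, genes with repeated Olduvai domains, were at 37.0 and 52.6 CPM on hg38 and at 7.50 and 0 on panTro6, whereas NBPF3 was at 17.6 and 42.5.

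Among other families, 2 of 8 symbols made of 2 gene symbols joined by a hyphen (25%) were higher on hg38. The rest had 0% to 12.5% of their genes higher on hg38, against 5.24% of all genes. Of 470 zinc finger genes with a ZNF symbol, 27 (5.74%) were higher on hg38 and none on panTro6. Of 81 cytosolic ribosomal protein genes, 6 were higher on hg38, RPL18, RPS15, RPL36 and RPL35A among them at 0 on panTro6, and RPL12 was higher on panTro6. Of 40 clustered protocadherins, the adhesion molecules that give neurons surface identity, 5 were higher on hg38, among them PCDHA9 at 65.6 CPM on hg38 and 8.45 on panTro6. Of 75 olfactory receptor genes 0 passed 2-fold in all libraries in either direction. Of 16 HLA genes, HLA-B and HLA-C, classical antigen-presenting molecules, were at 0 on panTro6 and at 11.2 to 71.7 and 14.2 to 95.3 CPM on hg38.

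The 395 genes higher on hg38 with some panTro6 counts ranged from near absence to partial loss. On panTro6, 120 had a mean under 1 CPM, 116 had 1 to 5 CPM and 159 had at least 5 CPM. In the first group CCND2, the cyclin that drives cell cycle entry in radial glia, was at 553 and 420 CPM in aRG, 514 and 362 in bRG, 304 and 320 in bIP and 147 and 93.8 in N on hg38. On panTro6 no library exceeded 1.23 CPM. On hg38 both N libraries were below all others, and the log2 difference of N from aRG was -1.85 ± 0.30 (SE), with an adjusted p of 0.00154. Without N replicate 2 the test among populations on hg38 gave 0.0546. On panTro6 the log2 difference was -0.69 ± 1.14, with an adjusted p of 0.732. The ratio was not tested, since CCND2 was under 5 CPM on panTro6.

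Other genes of this kind, like CCND2 chosen after their values were seen, were GAS6, BSG and PKD1. GAS6, a ligand of TAM receptors, was at 74.2 to 148 CPM in aRG, bRG and bIP and at 269 and 310 CPM in N on hg38. It passed the test there (adjusted p = 0.00482) and had at most 0.576 CPM on panTro6. BSG, a chaperone of lactate transporters, had 118 to 402 CPM on hg38 and at most 0.497 on panTro6. PKD1, a ciliary receptor, had 213 to 411 CPM on hg38 and at most 0.596 on panTro6, and did not pass on hg38 (adjusted p = 0.0777 among the 4 populations).

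How the populations differed was then read on hg38 for the 520 zero genes, a measure the rule did not use. The test asked for any difference among the 4 populations. The labels do not state whether the 2 libraries of 1 population are separate cultures, so p-values reflect only library-to-library spread, which could be technical. In sorted bulk samples fewer cells of a type and less RNA per cell cannot be told apart. All 520 passed the filter on low counts. Of these, 50 passed the threshold (9.62%), against 15.5% of the 16353 genes tested, and 101 of the 520 were under an unadjusted p of 0.05. The 16353 include genes under 1 CPM. Among the 13668 tested genes that reached 1 CPM in either table and were within 2-fold in all libraries, 17.3% passed. The median hg38 level was 14.0 CPM for the zero genes and 30.3 for all 15123 genes. Without aRG replicate 2 the count was 32, and DESeq2 called 89 zero genes and 3752 genes in all.

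Between neurons and apical radial glia, 32 zero genes were higher and 32 lower in N. Of all genes tested, 9.64% were higher and 9.59% lower. The median log2 difference was 0.06 over the zero genes and -0.02 over all genes. Between bIP and aRG, 15 were higher and 15 lower, against 3.57% and 3.71% of all genes. Between bRG and aRG, 0 passed with edgeR, 18 had an unadjusted p under 0.05 and DESeq2 called 2, where 0.00612% of all genes were lower and none higher. Among the 50 called genes the highest mean was in aRG for 19, in N for 16, in bIP for 10 and in bRG for 5. Of all 2540 genes called on hg38, the shares were 36.2% in aRG, 41.1% in N, 15.1% in bIP and 7.64% in bRG.

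Zero genes lower in neurons than in radial glia included cell division genes. TACC3, which organises spindle microtubules in mitosis, was at 387 and 394 CPM in aRG, 169 and 236 in bRG, 20.3 and 35.6 in bIP and 3.44 and 5.46 in N. No population overlapped another, and N differed from aRG by -6.30 ± 0.40 (log2, SE) with an adjusted p of 7.35e-06. DDX11, a helicase of sister chromatid cohesion, was at 118 and 130 CPM in aRG, 101 and 111 in bRG, 39.2 and 28.8 in bIP and 27.9 and 23.4 in N (log2 difference of N from aRG -2.11 ± 0.26, adjusted p = 0.000357). In each of 12 alternative fits both remained past the threshold. Further genes of the cell cycle, chosen after their values were seen, were called: CCNF, a cyclin of ubiquitin ligases (aRG 117 and 166 CPM, N 33.8 and 40.5), PKMYT1, a kinase that restrains mitotic entry (52.0 and 75.5, 12.9 and 15.4), and CCND1, cyclin D1 (74.9 and 35.6, 13.1 and 4.72). CCND1 passed with an adjusted p of 0.0325 in the fit to all libraries and in 8 of 12 alternatives.

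Genes of the extracellular matrix, signalling and stem cell state were also lower in N. METRN, a secreted factor of neural progenitors and glia, was at 56.9 and 82.4 CPM in aRG, 83.9 and 81.3 in bRG, 25.2 and 26.5 in bIP and 16 and 15.4 in N (adjusted p = 0.000971). ITGA7, a laminin receptor subunit, was at 71.7 and 78.2 CPM in aRG and 69.5 and 79.8 in bRG, against 16.7 to 26.2 in the bIP and N libraries (adjusted p = 0.00153). In both genes the 2 radial glia populations overlapped each other and lay above bIP and N. TEAD2, a transcription factor of the Hippo pathway, was at 19.0 to 35.8 CPM in all progenitor libraries and at 3.02 and 3.09 in N (adjusted p = 0.00115). HES5, a Notch effector of radial glia, chosen after its values were seen, had 109 and 34.0 CPM in aRG, 98.9 and 15.2 in bRG, 14.6 and 5.64 in bIP and 2.46 and 0.651 in N. Its replicates differed widely within populations, and it passed with an adjusted p of 0.0136 but not without N replicate 2 (0.0588).

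COL6A2, a collagen VI chain, was at 50.5 and 78.9 CPM in aRG, 35.6 and 33.7 in bRG, 25 and 13.6 in bIP and 4.78 and 3.01 in N (adjusted p = 0.000971, and at most 0.00593 in 12 alternative fits). Mesenchyme and choroid plexus markers moved with the same population. Of the other lists, 1 of 2 endothelium, 0 of 3 microglia, 0 of 4 interneuron and 0 of 2 pluripotent markers were called on hg38. Mesenchyme markers (COL1A1, COL3A1, DCN and LUM, 4 of 4 called on hg38) summed to 267 and 1714 CPM in aRG, 163 to 217 in bRG, 15.2 to 73.3 in bIP and 8.08 to 8.22 in N. Choroid plexus markers (TTR, CLIC6 and FOLR1, 3 of 3 called) summed to 947 and 3339 CPM in aRG and 15.0 to 75.2 in all other libraries, with the higher aRG sum in replicate 2. No mesenchyme or choroid plexus marker was at 0 in a population mean. The part of such cells in the differences from aRG was not tested.

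Zero genes higher in bIP and N included genes of neuronal shape and chromatin. CEP170, a centrosome and microtubule protein, was at 177 and 149 CPM in aRG, 200 and 226 in bRG, 377 and 399 in bIP and 500 and 438 in N, with no overlap between populations and a log2 difference of N from aRG of 1.68 ± 0.23 (adjusted p = 0.000519). ACTL6B, the actin-like subunit of the neuronal BAF chromatin complex, chosen after its values were seen, was at 9.28 and 16.2 CPM in aRG, 23.1 and 73.7 in bRG, 118 and 167 in bIP and 141 and 207 in N. Its log2 difference of N from aRG was 3.92 ± 0.54, with an adjusted p of 0.000581. BRSK2, a kinase of axon specification, was highest in bIP, at 207 and 211 CPM, against 129 and 120 in N and 60.5 to 78.4 in the radial glia libraries (adjusted p = 0.00088). MCF2L, a guanine nucleotide exchange factor, was at 64.0 to 91.2 CPM in radial glia and 171 to 242 in bIP and N (adjusted p = 0.00103).

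CBFA2T3, a transcriptional corepressor, was at 14.4 to 23.0 CPM in radial glia, 51.7 and 60.2 in bIP and 40.3 and 45.8 in N (adjusted p = 0.00168). TFR2, a transferrin receptor, was at 15.9 and 17.6 CPM in aRG and 44.6 to 129 in the other 6 libraries (adjusted p = 0.00101). LY6H, a surface protein that modulates nicotinic receptors, was at 179 and 135 CPM in N and 17.4 to 73.2 elsewhere (adjusted p = 0.00176). PTBP1, whose fall accompanies the switch to neuronal splicing, was at 244 and 245 CPM in aRG and 101 and 106 in N on hg38. It passed the test with an adjusted p of 0.0212, and in 7 of 12 alternatives. None of these zero genes could be tested on panTro6.

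**Figure D4:**
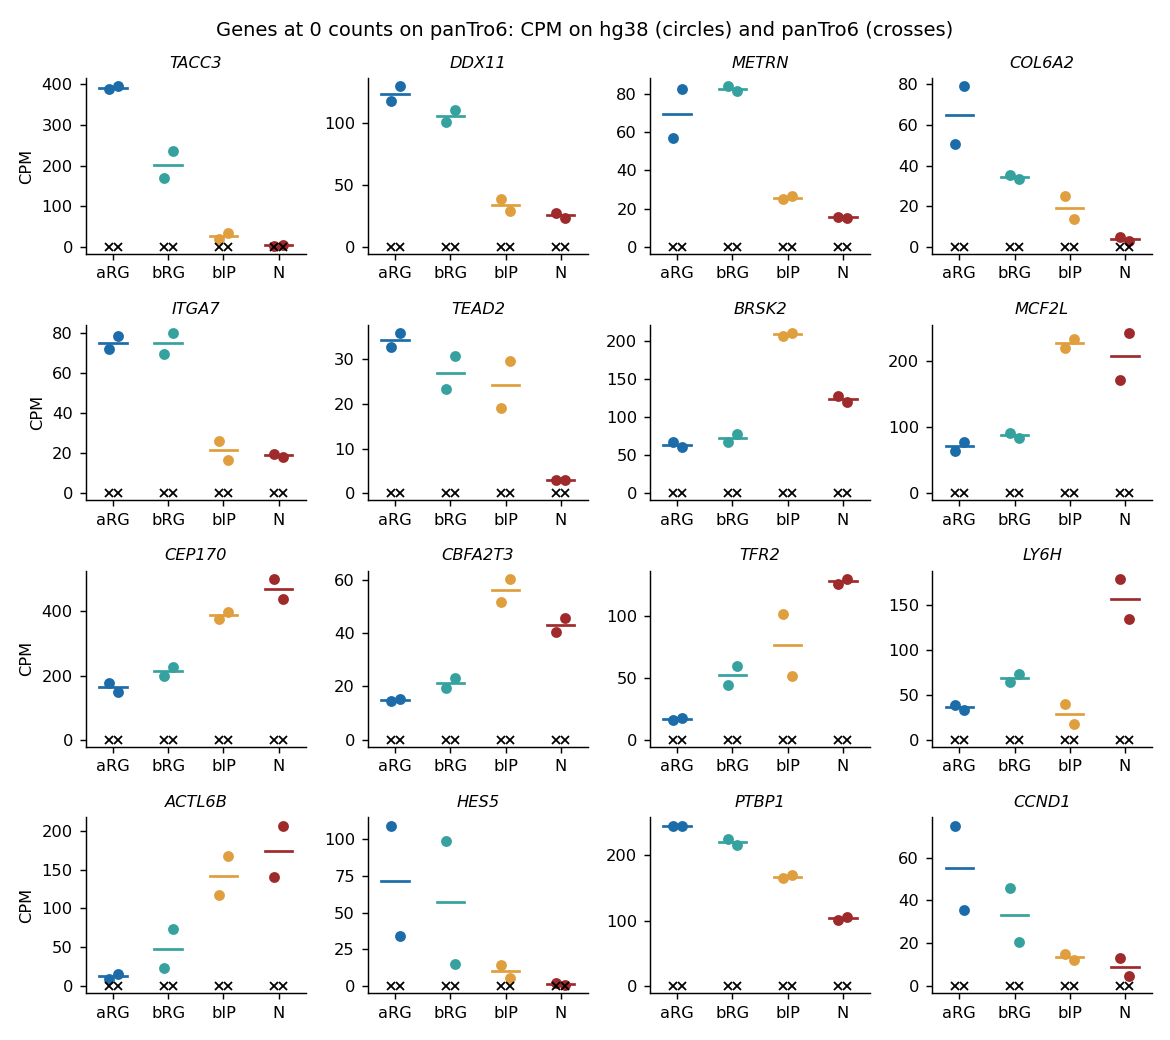
CPM by population is shown for 16 genes with 0 counts on panTro6, with circles for the 2 hg38 libraries, bars for their mean and crosses for panTro6, on axes scaled per gene. The crosses lie at 0 throughout, TACC3 and HES5 are lowest in N on hg38, and CEP170, ACTL6B and LY6H are highest in N.

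For genes counted on both genomes, log2 differences between populations were close in the 2 tables where the gene itself was within 2-fold. Over the 13668 such genes tested in both, the absolute gap between the 2 log2 differences of N from aRG had a median of 0.04, and 49 (0.359%) exceeded 1. Over 334 genes higher on hg38 that were tested in both, the median gap was 0.36, and 56 (16.8%) exceeded 1. Over 40 genes higher on panTro6 the median gap was 0.12, and 2 (5%) exceeded 1. In the 395 genes higher on hg38 with panTro6 counts, 55 passed the test among populations on hg38 (13.9%, all genes 15.5%). On panTro6, 334 of the 395 passed the filter and 23 were called (6.89%, all genes 14.8%). Their lower counts on panTro6 were part of the rule, and no test of these shares was made.

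Whether the ratio between genomes itself differed between populations was tested with limma in 11124 genes of at least 5 CPM in both tables. Of these, 16 passed (0.144%), and 730 had an unadjusted p under 0.05. Against aRG, the ratio was higher in N for 8 genes (0.0719%) and lower for 13 (0.117%), and in bIP higher for 1 and lower for 1 (EVC), 0.00899% each. In bRG 0 passed with limma, 403 had an unadjusted p under 0.05, and edgeR on the columns of both tables gave 0. Leaving out a library left 1 (without N replicate 2) to 10 genes (without N replicate 1), with 4 to 6 in the other cases. For N against aRG the 21 calls became 37 without N replicate 1, 13 without N replicate 2, and 7 and 5 without aRG replicates 1 and 2.

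EVC, a ciliary protein of Hedgehog signalling, had the smallest adjusted p (5.51e-05). On hg38 it was at 75.1 and 88.8 CPM in aRG, 53.1 and 102 in bRG, 37.8 and 58.0 in bIP and 21.0 and 51.0 in N. On panTro6 the same libraries had 18.0 and 20.4, 13.2 and 26.0, 2.06 and 4.00, and 0.526 and 2.53 CPM. The ratio was -2.07 to -1.93 in radial glia and -3.88 to -3.56 in bIP and N, with no overlap. The difference among populations passed on panTro6 (adjusted p = 0.0124) and not on hg38 (0.317). With a pseudocount of 5 CPM the ratio did not pass (adjusted p = 0.28).

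GJA1, which encodes the gap junction protein connexin 43 of radial glia, was at 24.1 and 33.3 CPM in aRG and 4.78 and 3.34 in N on hg38, and at 25.3 and 34.2 and at 0.566 and 0.239 on panTro6. The 2 genomes were thus level in aRG and apart in N, where the ratio was lower by -1.90 ± 0.10 (log2, SE, adjusted p = 0.0016). The panTro6 values in N lie under the 1 CPM added to both tables, which sets part of the size of this shift. Both tables called GJA1 lower in N, by -2.66 ± 0.44 on hg38 and -6.00 ± 0.62 on panTro6. Without N replicate 2 it did not pass the test among populations (adjusted p = 0.0642).

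Another 4 genes were read lower on panTro6 in all populations with a ratio that still shifted in N. The ratio of MAMSTR, a coactivator of MEF2 factors, was -1.79 to -1.45 in radial glia and -3.10 and -2.97 in N. DNM2, a dynamin of endocytosis, was at -1.85 to -1.49 in all progenitors and -2.29 and -2.24 in N. SLCO5A1, a transporter-like protein, was at -1.34 to -0.979 and at -1.85 and -1.84. CUX1, a transcription factor of upper-layer neurons, moved the other way, from -2.84 and -2.82 in aRG to -2.26 and -2.16 in N. Its fall from aRG to N passed on hg38 (-0.96 ± 0.26, adjusted p = 0.0245), and on panTro6 the log2 difference was -0.33 ± 0.28 (adjusted p = 0.476). The ratio of DNM2 passed in 9 of 16 alternative fits, of MAMSTR in 8 of 15, of CUX1 in 5 of 16 and of SLCO5A1 in 4 of 16.

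ESPL1, which encodes the separase that splits sister chromatids, and DENND1A, an endocytic exchange factor, were chosen after their values were seen and also had shifted ratios. ESPL1 was at 128 and 182 CPM in aRG and 2.60 and 4.23 in N on hg38, and at 14.7 and 19.8 and at 1.17 and 1.34 on panTro6. The panTro6 values in N lie near the 1 CPM added to both tables, which pulls that ratio toward 0 (adjusted p = 0.013 for the ratio). DENND1A was at 194 and 210 CPM in aRG and 70.3 and 59.6 in N on hg38, a log2 difference of -1.48 ± 0.23 (adjusted p = 0.00129). On panTro6 it was at 56.3 and 52.1 and at 42.2 and 34.2, a log2 difference of -0.33 ± 0.26 (adjusted p = 0.444). The remaining called genes included RRM2, KNL1 and BRIP1, genes of DNA synthesis, kinetochores and DNA repair with under 4 CPM in N on both genomes. Others, also chosen after their values were seen, were SETD1B, a histone methyltransferase, with ratios of -2.52 to -2.15 in progenitors and -3.36 and -3.22 in N, and ADK, MAP2K4 and APP, each with an adjusted p of 0.0493. Across alternative fits RRM2 passed in 10 of 16, SETD1B in 8 of 15, ESPL1 in 7 of 14, KNL1 in 6 of 16, BRIP1 in 4 of 15, DENND1A in 3 of 16, and ADK, MAP2K4 and APP in 1 of 16 each.

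**Figure D5:**
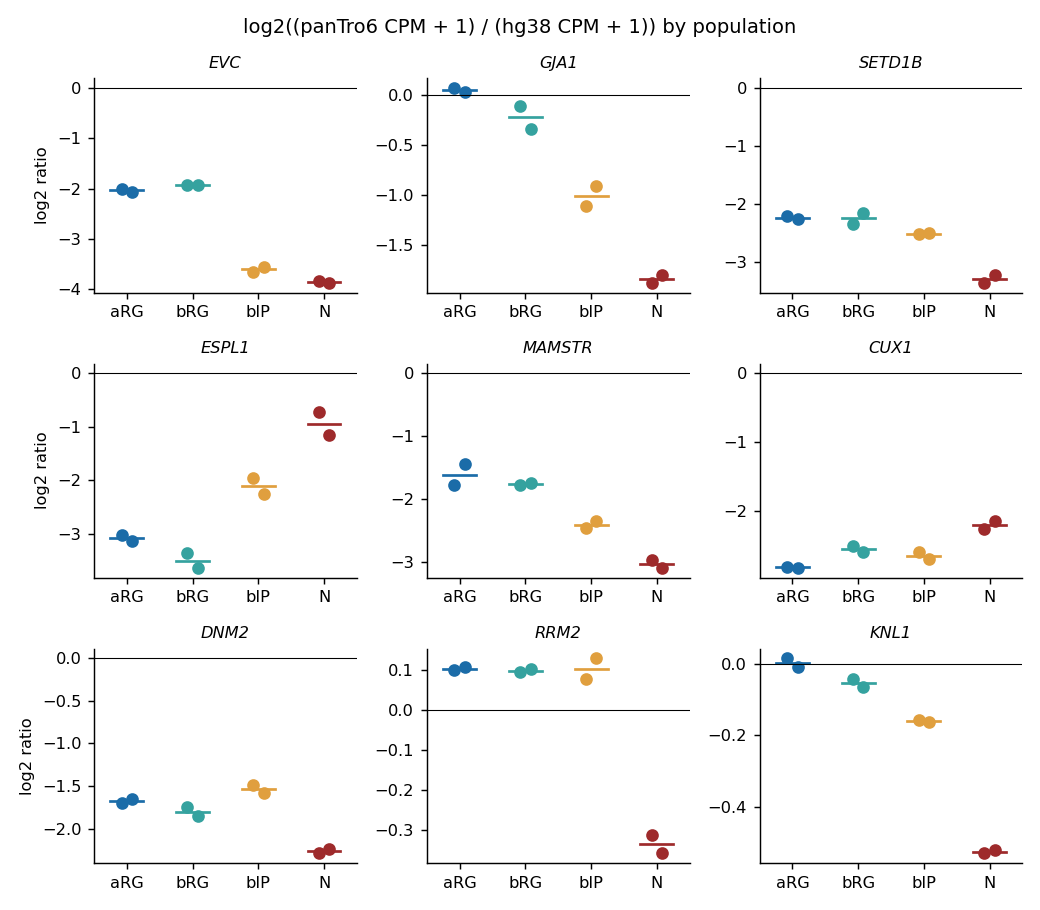
The log2 ratio of panTro6 over hg38 CPM is shown per library (points) with the population mean (bars) for 9 genes whose ratio differed among populations, on axes scaled per gene, with a line at 0. EVC is lower in bIP and N, GJA1, SETD1B and MAMSTR are lowest in N, ESPL1 is highest in N, and the shifts of RRM2 and KNL1 are under 0.6.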

How the data were processed

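The authors deposited 1 table per genome, holding whole-number counts of reads for each gene symbol. Per the submitters' processing notes the authors used STAR with panTro6 and hg38. The annotation, the counting program and the STAR version are, like the strandedness option, not given in the sources used here. Per the labels' protocols, libraries were of the Smart-seq2 kind with 12 to 17 PCR cycles and transposon-based fragmentation, with no strand marking and no molecular identifiers named. Antisense and overlapping genes can therefore not be told apart. The panTro6 table has 1 row without a symbol (0.00545% to 0.00771% of its counts), which was left out. Columns were matched to samples by name.

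CPM was computed over shared symbols. Each table was fitted with the quasi-likelihood test of edgeR 4.0.16 in R 4.3.3 (filterByExpr, TMM scaling, 1 coefficient per population, 4 residual degrees of freedom), two-sided, with Benjamini-Hochberg adjustment over all genes tested and a threshold of 0.05. The common coefficient of variation was 0.357 on hg38 and 0.418 on panTro6. The within-library log2 ratio was fitted with limma 3.58.1. Its spread trend was taken on the mean level of both tables, a choice made after seeing the data, since limma's default trend on the mean ratio gave standard errors of up to 65.3 for genes with extreme ratios. Only the edgeR fit of each table and the limma fit of the ratio were tested on simulated data. The counts simulated for edgeR had less spread than the common values given above. DESeq2 1.42.0 served as an alternative.

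The members and lists were chosen with earlier results of these data known. Named genes were the 12 widest ratios each way at 10 CPM or more, the 12 zero genes with the highest hg38 level, the 12 with the smallest adjusted p, the 10 smallest adjusted p of the ratio test at 10 CPM, and members of fixed families. One gene that the rule names is not reported here. Replicate numbers are not stated to pair libraries: correlations of same-numbered deviations were 0.0931 to 0.249 between populations. RefSeq gene order came from NHGRI_mPanTro3-v2.0, matched by symbol, and none of its coordinates were used.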

Additional observations from a re-analysis of the deposited data

Results flagged for a closer look

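The ratio between genomes differed among populations by limma's test, with Benjamini-Hochberg adjustment, for 9 named genes. The adjusted p was 5.51e-05 for EVC, 0.00779 for GJA1, 0.00835 for RRM2, 0.013 for KNL1, 0.013 for DNM2, 0.0243 for MAMSTR, 0.0305 for BRIP1, 0.0400 for CUX1 and 0.0432 for SLCO5A1. Of these, GJA1 kept its call in 14 of 15 alternative fits and EVC in 13 of 15. RRM2 kept it in 10 of 16, DNM2 in 9 of 16, MAMSTR in 8 of 15, KNL1 in 6 of 16 (adjusted p up to 0.987), CUX1 in 5 of 16 (up to 0.761), SLCO5A1 in 4 of 16 and BRIP1 in 4 of 15. For RRM2 the shift of N against aRG was -0.44 ± 0.03 (log2, SE), with 338 and 320 CPM on hg38 in aRG and 1.90 and 3.09 in N. For KNL1 it was -0.53 ± 0.03 and for BRIP1 -0.72 ± 0.06, with 3.65 and 2.77 CPM and 1.55 and 1.47 CPM on hg38 in N. At such levels the 1 CPM added to both tables sets part of the ratio.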

How the results depend on the processing

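The gene-level results recomputed under other settings were adjusted p-values, compared only by the threshold, and median genome ratios. Of these, 1053 stayed the same, 46 ratios moved by at least 1 SD, and 175 adjusted p lost and 9 gained a call. No ratio changed sign, but most belonged to genes chosen for ratios far from 0. The direction and size of population differences were not compared. The replicate number as a block moved the calls among populations to 4202 genes on hg38 and 3844 on panTro6, for bRG against aRG to 59 and 43, for bIP against aRG to 2342 and 2115, for the zero genes to 95, and for the ratio in bIP to 1. With the block RPS15, ANKRD36C, RPL18, GPX4, NCAPH2 and MTRNR2L12 passed among populations on hg38 (adjusted p = 0.0149, 0.0158, 0.0170, 0.0313, 0.00460 and 0.00399). No pairing is stated, and the cause was not tested. DESeq2 gave 3721 calls among populations on panTro6, 110 and 107 for bRG against aRG on hg38 and panTro6, 1916 and 1961 for bIP, and 89 zero genes. For the ratio, edgeR on both tables' columns gave 5 genes in bIP. A minimum of 20 CPM left 4 among populations, 1 in bIP and 10 in N, for fewer genes tested, and a pseudocount of 5 CPM left 1 in bIP. limma's default trend, added after seeing the data, gave 7 genes among populations, 0 in bIP and 7 in N.

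A pseudocount of 5 CPM left 25 genes higher on panTro6 and CPM over all named rows left 23. Zero genes on panTro6 were 1052 with no minimum on hg38 and 285 with 10 CPM. Genes at 0 on hg38 were 214 with no minimum on panTro6 and 0 with 10 CPM, and 7 had at most 10 counts in each hg38 library.

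Leaving out 1 library at a time gave 1791 to 2368 calls among populations on hg38 and 1706 to 2233 on panTro6. For N against aRG these ranges were 2037 to 3005 and 1842 to 2833, for bIP 535 to 1315 and 425 to 1250, and for bRG 0 to 16 in both. For the ratio they were 1 to 10 among populations, 5 to 37 in N, 1 to 4 in bIP and 0 to 0 in bRG. Zero genes were 517 to 526, of which 32 to 48 were called, genes at 0 on hg38 1 to 2, genes higher on hg38 797 to 813 and on panTro6 42 to 44. At 2 libraries per population and 4 residual degrees of freedom, small differences are not detectable.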
